A study of Mus musculus with 31 samples.

Results

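Integrin and laminin chains were examined in RNA sequencing of Panc02 cells, a mouse pancreatic cancer cell line. The chains were chosen by gene symbol, as the genes named Itga, Itgb, Lama, Lamb or Lamc with a chain number or letter, and not by any measured value. The rule found 37 genes in each of the 3 count tables, out of 52256 gene entries that all 3 tables list. They were 18 integrin alpha chains, 8 integrin beta chains and 11 laminin chains.

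The 31 libraries formed 11 groups, of 3 libraries each except for 2 groups of 2. In the first table, wild-type (WT) spheroids in Matrigel received control medium (Ctrl), medium conditioned by untreated macrophages (M0-CM) or medium conditioned by macrophages stimulated with IFNγ and lipopolysaccharide (M1-CM). In the second table, WT cells and Cxcl5-/- cells grew in 2D or in 3D. In the third table, called rescue here, WT (n = 2), Cxcl5-/- (n = 2), Hif1aOE Cxcl5-/- and MycOE Cxcl5-/- cells grew in 3D. Cxcl5 was targeted in Panc02 cells with lentiCRISPRv2, and the sources used here do not say whether one clone or a pool was kept. Hif1aOE cells carried a stabilised mutant of mouse Hif1a and MycOE cells carried Myc, both in Cxcl5-/- cells, so that no library shows either factor in cells with intact Cxcl5. In the rescue labels the number in the cell line name counts up with the libraries, and these cells are taken as Panc02, as in the study. The study pooled spheroids for several of its other assays, and its RNA sequencing methods do not mention pooling. The labels do not say that replicates were separate cultures, so p-values measure the spread between these libraries, which may be technical.

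An integrin is a receptor made of an alpha and a beta chain that spans the cell membrane and ties the matrix outside to the cytoskeleton inside. A laminin is a cross-shaped trimer of an alpha, a beta and a gamma chain and is the main cell-binding protein of basement membranes. Epithelial cells, the pancreatic duct included, bind laminin mostly through the pairs of Itga3 with Itgb1 and of Itga6 with Itgb4, the latter being the receptor of hemidesmosomes. Matrigel is itself a basement membrane extract rich in laminin, so spheroids in it met laminin that their own RNA does not report.

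Library totals ran from 41542533 to 78498230 counts. The rescue WT libraries stood apart, with 43037 and 43048 genes at 1 count or more against 26886 to 31338 in the other 8 rescue libraries. Their counts over 1107 olfactory receptor genes, which these cells have no known use for, were 5.31 to 5.46 per kb of exon, against 0.151 to 1.61 in the other 29 libraries. The level also differed within the second table. It was 0.151 to 0.216 in 2D WT and 0.165 to 0.231 in 2D Cxcl5-/-. In 3D it was 0.978 to 1.61 in WT and 0.349 to 0.446 in the libraries labelled Cxcl5-/-. The level of a library gives an expected background for each gene from its exon length. This background is printed beside results of several chains with counts near it. Cxcl5 itself was lower in the 2D Cxcl5-/- libraries (mean 34.3 CPM) than in 2D WT (47.3) but in 3D it was 27.0 in WT and 50.6 with the Cxcl5-/- label, so its RNA goes against that label. The study checked the knockout by immunoblot of CXCL5 protein, in 3D cells as well, and RNA counts do not report protein. The cause of the higher RNA was not tested. In the rescue table Cxcl5 RNA was at 38.4 CPM in Cxcl5-/- and 66.0 in WT. Myc rose from 21.1 to 490.2 CPM in MycOE, and Hif1a went from 139 to 266 in Hif1aOE and to 258 in MycOE. CPM are counts scaled by the TMM-scaled library size, and adjusted p-values come from the quasi-likelihood test of edgeR over all genes of a table, with a threshold of 0.05.

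Of the chains, 26 passed the filter on low counts in the conditioned media table, 28 in the table of 2D and 3D cultures and 36 in the rescue table. Itga3, Itgav, Itgb1, Itgb5, Itgb8, Lama5, Lamb1, Lamb2 and Lamc1 had over 1000 counts in every library. At the other end, the leukocyte chains Itgad, Itgam and Itgax had at most 20 counts in every library. Per kb of exon, Itgb1, the beta chain shared by most laminin and collagen receptors, had the highest mean in 10 of the 11 groups. In Hif1aOE Cxcl5-/- it differed from Itgb5 by less than their SDs. Itgb1 stood at 186 ± 3.04 CPM per kb (SD, n = 3) in 3D WT, followed by Itgb5 at 89.3 ± 13.2, Itga3 at 45.9 ± 5.68 and Itgav at 44.3 ± 4.81. Itga3 and Itgav differed by less than their SDs. Itgb5, which pairs with Itgav to bind vitronectin, was the highest in the libraries labelled 3D Cxcl5-/-, at 166 ± 11.7 against 143 ± 5.27 for Itgb1. Among the ligands, Lama5 had the highest mean in all 11 groups. In Ctrl (39.6 ± 14.9 against 38.5 ± 3.29 CPM per kb) and M0-CM it differed from Lamb2 by less than its own SD. In 3D WT Lama5 stood at 45.3 ± 3.69 CPM per kb, Lamc1 at 33.2 ± 1.93, Lamb2 at 23.2 ± 4.04 and Lamb1 at 16.2 ± 1.99, in an order whose neighbours were further apart than their SDs. These are the chains of the laminins that hold the alpha chain Lama5. Lama3 and Lamb3, chains of the laminin of epithelial anchorage, were lower in 3D WT, at 0.396 ± 0.0496 and 0.0254 ± 0.00229 CPM per kb. Lama1, the alpha chain of the main laminin in Matrigel, was at 0 in 26 of 31 libraries. On GRCm38, Itga6 lies at chr2:71745616-71858416 and Itgb4 at chr11:115974709-116008412, both on the plus strand. B230344G16Rik overlaps Itgb4 and Mettl7b overlaps Itga7, so their reads cannot be told apart where strand was not used.

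**Figure D1:**
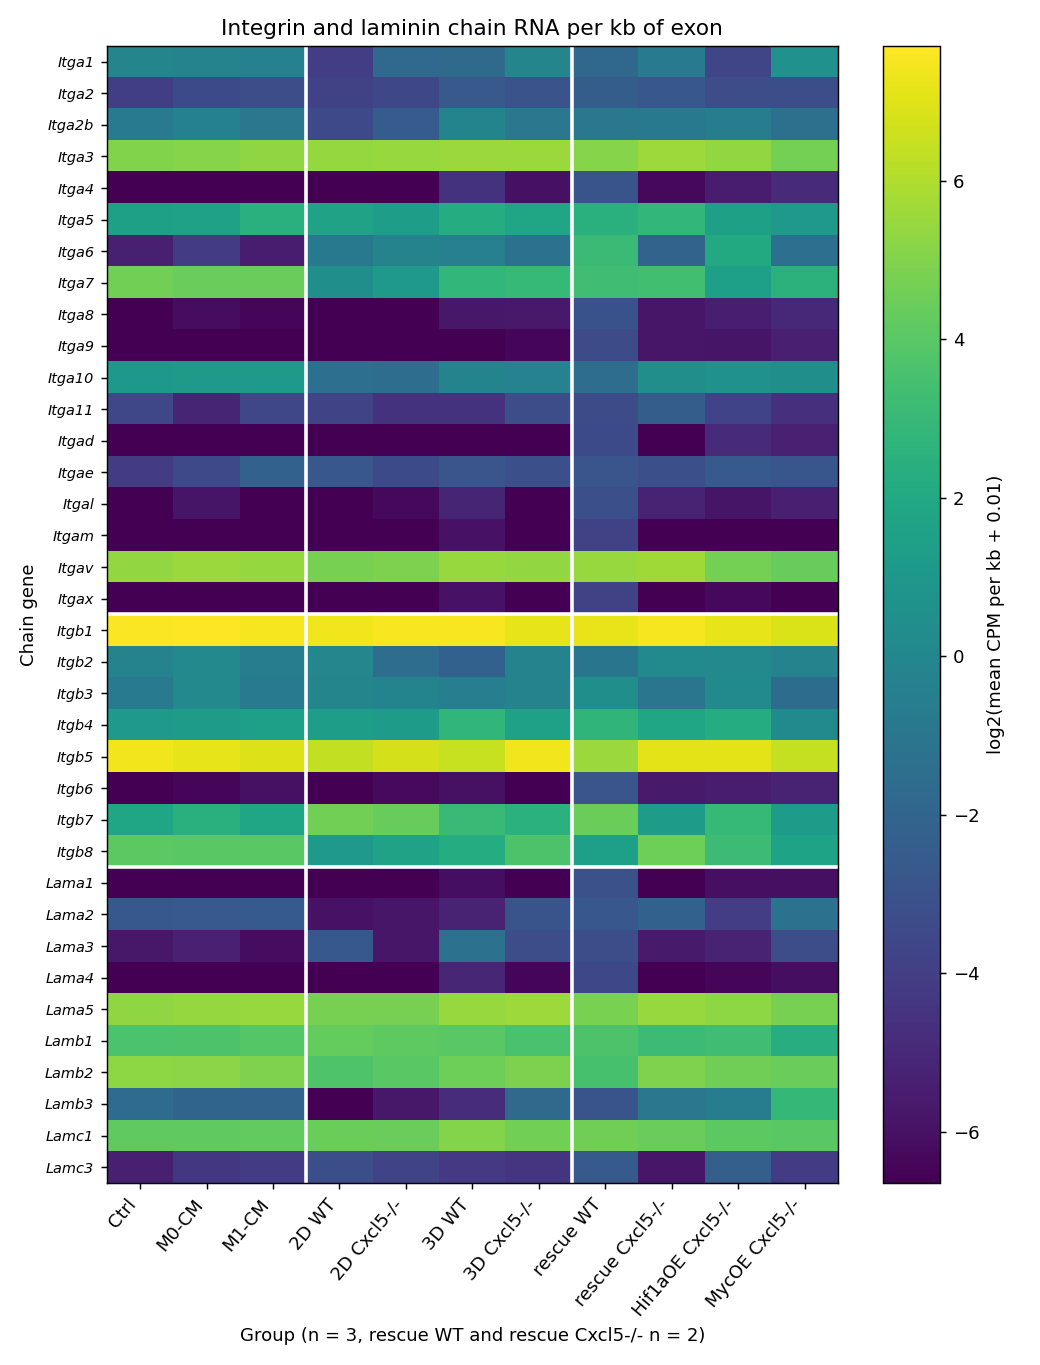
Mean level of 36 chains (vertical axis) in each of the 11 groups (horizontal axis), as the log2 of mean CPM per kb of exon plus 0.01 (colour). White lines part integrin alpha, integrin beta and laminin chains, and the 3 count tables. Itgb1, Itgb5, Itga3, Itgav, Lama5, Lamb1, Lamb2 and Lamc1 form bright bands across all groups, while Itga6, Itgb8 and Lamb3 change from group to group.

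The untreated WT spheroids of the 3 tables did not carry the same chains. Itgb8, which pairs with Itgav and releases active TGF-beta from its latent complex, was at 238, 138 and 178 CPM in Ctrl, 48.4, 51.2 and 53.7 in 3D WT and 27.6 and 33.6 in rescue WT. Itga6 was at 0.387, 0 and 0 CPM in Ctrl, 8.45, 6.10 and 5.66 in 3D WT and 77.0 and 80.0 in rescue WT. Itga7, an alpha chain best known as the laminin receptor of muscle, was at 206, 195 and 209 CPM in Ctrl, 67.8, 51.4 and 58.3 in 3D WT and 86.2 and 74.2 in rescue WT. The ranges of the 3 groups did not overlap for Itgb8 and Itga6. For Itga7 the Ctrl libraries lay above all others. The tables were normalised separately and experiment, medium and table cannot be told apart here, so these differences were not tested, and every test below stays within a table.

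Promoter sequence is shown for Itgb8 and Lamb3, an integrin chain and a laminin chain that moved furthest in opposite directions in MycOE Cxcl5-/- spheroids. RefSeq promoter windows were found for 23 of the 37 chains, as 26 windows of 250 bases that end at a RefSeq transcript start. That start can lie inside the span of the annotated gene, as it does for both of these. Both sequences are from the GRCm38.p6 build, 5′ to 3′ on the gene's strand, with CG pairs in capitals. Itgb8 lies at chr12:119238277-119238526 on the minus strand. Lamb3 lies at chr1:193301744-193301993 on the plus strand and is the first of its pair of windows.
Itgb8: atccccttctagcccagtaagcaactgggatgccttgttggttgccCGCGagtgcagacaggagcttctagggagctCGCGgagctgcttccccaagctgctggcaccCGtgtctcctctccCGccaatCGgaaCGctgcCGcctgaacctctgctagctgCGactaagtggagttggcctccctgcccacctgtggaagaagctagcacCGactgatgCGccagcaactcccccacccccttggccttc
Lamb3: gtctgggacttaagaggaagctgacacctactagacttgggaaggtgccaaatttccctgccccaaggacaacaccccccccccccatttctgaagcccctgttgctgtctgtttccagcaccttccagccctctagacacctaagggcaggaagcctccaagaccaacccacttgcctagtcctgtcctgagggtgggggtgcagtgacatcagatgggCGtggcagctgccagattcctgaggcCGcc
The Itgb8 window holds 12 CG pairs and is 62.4% G or C, and the Lamb3 window holds 2 CG pairs and is 58.8% G or C. The median was 10 CG pairs over the 26 windows and 6 over all 32851 RefSeq windows of this length. The motif CACGTG, the E-box that Myc can bind, was found on either strand in 0 of the 26 windows and in 6.02% of all windows. The shorter ACGTG, which is part of CACGTG and a form of the core of the hypoxia response element, was found in 1 of the 26, that of Itga9, and in 16.6% of all. Other forms of that core were not searched for.

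Growth in 3D went with higher RNA of some laminin receptor chains and of most laminin chains tested. Between 3D WT and 2D WT, 15 of the 28 chains tested rose and 3 fell, and 44.3% of all genes tested were called in this comparison (22.2% up, 22.0% down). Laminin-binding integrin chains were taken as a fixed list of Itga1, Itga2, Itga3, Itga6, Itga7, Itga9, Itgb1 and Itgb4. The other integrin chains are those outside this list. Of the 7 laminin-binding integrin chains tested, 4 rose and none fell, and of the 9 laminin chains tested 6 rose and none fell. These counts include the laminin chain Lamb3, and those over all chains include Itga4 as well. Both calls rest on counts near the expected background of 3D WT, as given below. The median log2 fold change was 1.31 over the laminin-binding chains, 0.78 over the laminin chains and 0.34 over the other integrin chains, beside 0.00 over all genes tested. Fewer cells of a type and less RNA per cell cannot be told apart in such bulk libraries.

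Among the receptors, Itga7 was at 12.9, 9.41 and 11.4 CPM in 2D WT and 67.8, 51.4 and 58.3 in 3D WT (log2 fold change 2.40 ± 0.13, adjusted p = 8.12e-09). Itgb4 was at 18.6, 17.9 and 16.3 CPM in 2D WT and 55.0, 43.4 and 49.4 in 3D WT (log2 fold change 1.49 ± 0.14, adjusted p = 1.02e-06). Itga1, an alpha chain that binds collagen IV as well as laminin, was at 0.713, 1.15 and 0.987 CPM in 2D WT and 5.31, 5.02 and 6.12 in 3D WT (log2 fold change 2.52 ± 0.17, adjusted p = 6.49e-08). All 3D libraries were above all 2D libraries for these chains. The partner of Itgb4, Itga6, was at 5.35, 5.34 and 4.31 CPM in 2D WT and 8.45, 6.10 and 5.66 in 3D WT, without passing the test (log2 fold change 0.43 ± 0.22, adjusted p = 0.138). Itga3 did not pass it either (log2 fold change 0.09 ± 0.11, adjusted p = 0.538), nor did Itgb1 (log2 fold change 0.15 ± 0.07, adjusted p = 0.118).

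Among the ligands, Lama3 was at 1.62, 1.67 and 1.43 CPM in 2D WT and 4.63, 3.64 and 4.48 in 3D WT (log2 fold change 1.44 ± 0.25, adjusted p = 3.63e-04). It was higher in every 3D library than in any 2D library. Lamb3, which assembles with Lama3, had no count in 2D WT and 8, 7 and 10 counts in 3D WT. It was called at least 3.53-fold higher against a floor of 3 counts per library, but about 11 counts are the expected background in 3D WT. The abundant chains rose less, with log2 fold changes of 0.78 ± 0.11 for Lamb2, 0.73 ± 0.12 for Lama5 and 0.57 ± 0.10 for Lamc1, and Lamb1 did not pass (log2 fold change -0.27 ± 0.11, adjusted p = 0.0629), though with library totals it was called lower (-0.49, adjusted p = 0.0113).

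Beyond the laminin receptors, Itga2b, the alpha chain of the platelet fibrinogen receptor, rose by a log2 fold change of 3.47 ± 0.25 to 4.87, 4.55 and 4.74 CPM. Its usual partner Itgb3 was among the 3 chains that fell, by the smallest change of them (-0.41 ± 0.15), a call that was lost without any of 5 of the 6 libraries (adjusted p from 0.0421 to 0.127). Itgb2, the beta chain of leukocytes, fell from 2.66, 3.32 and 3.06 CPM to 0.989, 0.561 and 0.332, a log2 fold change of -2.26 ± 0.35. Itgb7, the beta chain of gut-homing lymphocytes, fell from 79.5, 60.4 and 66.6 CPM in 2D WT to 24.6, 21.8 and 23.1 in 3D WT (log2 fold change -1.57 ± 0.13, adjusted p = 4.26e-07). Itga4, a partner of Itgb7, was called at least 9.90-fold higher in 3D WT, with 28, 8 and 37 counts against about 22 of expected background. Markers of leukocytes summed to 28.0 to 32.4 CPM in 2D WT and 42.2 to 46.5 in 3D WT, with Adgre1 and Cd3e at 0 in all 6 libraries, and markers of platelets summed to 0.892 to 1.12 and 3.54 to 5.16 CPM. Markers of ductal epithelium summed to 536 to 586 CPM in 2D WT and 840 to 1085 in 3D WT, and those of fibroblasts to 171 to 185 and 151 to 162 CPM. The part of these markers was not tested.

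In 3D, the Cxcl5-/- label went with lower RNA of the hemidesmosome receptor and of Lama3, and with higher RNA of Itgb8, Itgb5 and Itga1. Between the libraries labelled 3D Cxcl5-/- and 3D WT, 7 of 28 chains rose and 9 fell, and 45.0% of all genes tested were called (19.7% up, 25.3% down). Among laminin-binding integrin chains 1 rose and 3 fell, and among laminin chains 3 rose and 4 fell. This split depended on scaling: with library totals in place of TMM, 12 chains rose and 3 fell, as the median of all genes went from -0.04 to 0.35 on the log2 scale. Lama3 and Itgb4 fell under both scalings, and the 7 chains that rose did so under both. Itga6, Itga2b, Itgb1, Itgb7, Lamb1 and Lamc1 were called lower under TMM alone, and Itga3, Itga7, Itga11, Itgb3 and Lama5 were called higher with library totals alone.

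Lama3 was at 4.63, 3.64 and 4.48 CPM in 3D WT and 1.33, 0.797 and 0.947 in the libraries labelled 3D Cxcl5-/- (log2 fold change -2.05 ± 0.26, adjusted p = 2.54e-05). No library of one group reached the other. Itgb4 was at 55.0, 43.4 and 49.4 CPM and 16.6, 25 and 20.2 (log2 fold change -1.26 ± 0.13, adjusted p = 5.58e-06). Itga6 was at 8.45, 6.10 and 5.66 CPM and 3.47, 5.06 and 2.61 (log2 fold change -0.86 ± 0.23, adjusted p = 0.00707). The groups did not overlap for Itgb4 or Itga6, but with library totals the Itga6 change was -0.46 (adjusted p = 0.143). Lamb1 fell by 0.46 ± 0.11 on the log2 scale, with -0.06 (adjusted p = 0.775) under library totals. Lamc1 and Itgb1 fell by 0.39 ± 0.10 and 0.37 ± 0.07 on the log2 scale, and under library totals both had a log2 fold change of 0.01, with adjusted p of 0.956 and 0.906.

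**Figure D2:**
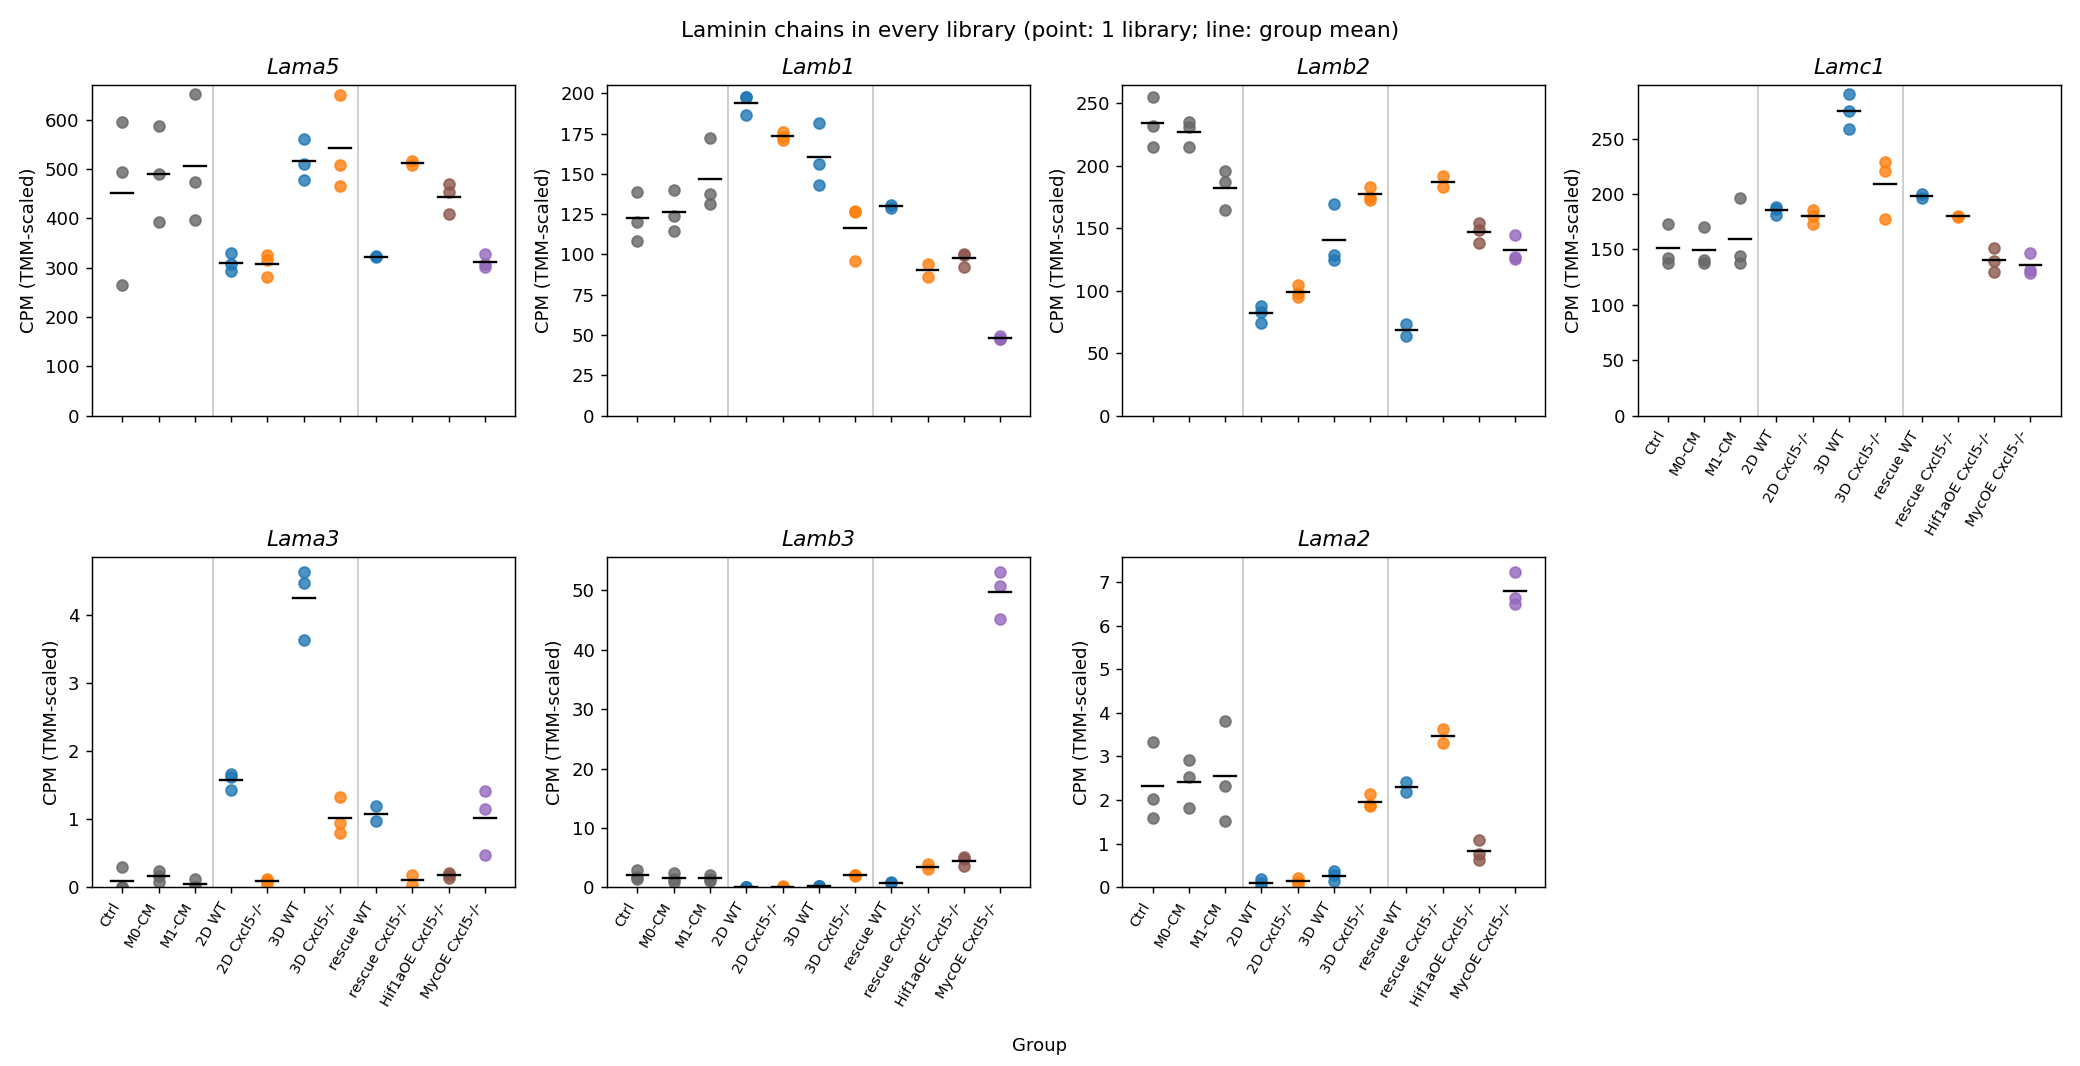
CPM on the TMM-scaled library size (vertical axes, each from 0) of 7 laminin chains in every library (points, with the group mean as a line) of the 11 groups (horizontal axes), with grey lines between the 3 tables. Lama3 stands high in 3D WT and low in the libraries labelled 3D Cxcl5-/-, Lamb3 is high in MycOE Cxcl5-/- alone, at 45.2, 53.0 and 50.7 CPM, and Lama5 and Lamb2 are far from 0 in all groups.

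Of the chains that rose, Itgb8 was at 48.4, 51.2 and 53.7 CPM in 3D WT and 136, 153 and 146 in the libraries labelled 3D Cxcl5-/- (log2 fold change 1.5 ± 0.10, adjusted p = 9.57e-08). Itgb5 was at 366, 273 and 312 CPM and 575, 556 and 635 (log2 fold change 0.89 ± 0.10, adjusted p = 1.21e-05). Itga1 was at 5.31, 5.02 and 6.12 CPM and 16.8, 15.8 and 18.7 (log2 fold change 1.64 ± 0.15, adjusted p = 1.72e-06). The groups did not overlap for any of them. Reads of Itga1 cannot be told apart from those of Pelo, a gene inside it on the same strand, where they overlap. Lamb3 was at 0.155, 0.163 and 0.184 CPM and 1.86, 2.08 and 2.12 (log2 fold change 3.57 ± 0.60, adjusted p = 5.21e-04), opposite to Lama3. Lama2, the alpha chain of muscle and nerve laminins, was at 0.368, 0.140 and 0.277 CPM and 1.89, 1.85 and 2.14 (log2 fold change 2.88 ± 0.59, adjusted p = 0.00129). In 3D WT the counts were 19, 6 and 15 for Lama2, with 16 to 26.3 expected from background, and 8, 7 and 10 for Lamb3, with 6.47 to 10.6 expected. Lamb2 rose by 0.33 ± 0.11, a call lost without any of 4 of the 6 libraries (adjusted p from 0.00184 to 0.149).

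Lists of cell type markers moved with this comparison. The list of pancreatic ductal epithelium (Krt8, Krt18, Krt19, Epcam, Cdh1, Cldn4 and Muc1) summed to 840 to 1085 CPM in 3D WT and 189 to 221 in the libraries labelled 3D Cxcl5-/-, where Epcam and Cdh1 were at 0. The fibroblast list (Col1a1, Col1a2, Pdgfra, Pdgfrb and Dcn) summed to 151 to 162 and 392 to 450 CPM. In the rescue table the same lists summed to 823 to 865 and 258 to 271 CPM for epithelium and 74.8 to 78.4 and 372 to 379 for fibroblasts, in WT and Cxcl5-/-. Epcam, a defining marker of epithelium, was at 0 in all libraries of every group but 3D WT and rescue WT. All groups are taken as the same cell line, and the part of these markers in the results was not tested.

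In 2D the genotypes were closer. Of 28 chains, 5 rose and 3 fell in 2D Cxcl5-/- against 2D WT, and 7.03% of all genes tested were called (3.86% up, 3.17% down). Without 2D WT replicate 3, or without 2D Cxcl5-/- replicate 1, the count was 5 in place of 8. Itga1 was at 0.713, 1.15 and 0.987 CPM in 2D WT and 5.20, 5.52 and 5.56 in 2D Cxcl5-/- (log2 fold change 2.5 ± 0.17, adjusted p = 7.53e-07). Lama3 was at 1.62, 1.67 and 1.43 CPM and 0.0445, 0.0965 and 0.123 (log2 fold change -4.13 ± 0.33, adjusted p = 3.14e-06). Itgb8 was at 20.2, 27.1 and 21.6 CPM and 32.4, 36.3 and 34.0 (log2 fold change 0.57 ± 0.10, adjusted p = 0.00293). For these 3 chains the groups did not overlap. Itga2b rose by 1.11 ± 0.25 on the log2 scale and Itgb2 fell by 1.55 ± 0.33, a call lost without 2D Cxcl5-/- replicate 2 or 3 (adjusted p from 0.0136 to 0.0638). Itga7 rose by 0.57 ± 0.13, which was lost without 2D Cxcl5-/- replicate 1 (adjusted p = 0.0538). Itgb5 rose by 0.38 ± 0.10, which was lost without any of the 6 libraries (adjusted p from 0.0643 to 0.127).

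Growth in 3D was compared with 2D under the Cxcl5-/- label as well. Between the libraries labelled 3D Cxcl5-/- and 2D Cxcl5-/-, 14 of 28 chains rose and 4 fell, and 57.0% of all genes tested were called (28.7% up, 28.2% down), with a median of 0.11 over all genes on the log2 scale. Itga6 fell from 8.33, 7.46 and 6.75 CPM to 3.47, 5.06 and 2.61 (log2 fold change -1.02 ± 0.23, adjusted p = 0.00163). Itgb4 rose by 0.34 ± 0.13, a call lost without any of 5 of the 6 libraries (adjusted p from 0.00723 to 0.215). Itga7 rose by 1.93 ± 0.13 and Itgb8 by 2.08 ± 0.10, and the groups of both chains did not overlap. Lama3 went from 0.0445, 0.0965 and 0.123 CPM to 1.33, 0.797 and 0.947 (log2 fold change 3.52 ± 0.34, adjusted p = 1.04e-06) and Lama2 from 0.0741, 0.129 and 0.216 CPM to 1.89, 1.85 and 2.14 (log2 fold change 3.80 ± 0.62, adjusted p = 1.38e-04). Both were higher in every 3D library than in any 2D library. Itga1 rose by 1.66 ± 0.15, and Lamb1 and Itgb1 fell by 0.57 ± 0.11 and 0.37 ± 0.07 on the log2 scale. Lama5 and Lamb2 rose by 0.82 ± 0.12 and 0.83 ± 0.11 on the log2 scale, against 0.73 ± 0.12 and 0.78 ± 0.11 in WT cells. Lamb3 went from 0.148, 0.0322 and 0 CPM to 1.86, 2.08 and 2.12 (log2 fold change 5.0 ± 0.66, adjusted p = 5.21e-05). The epithelial marker list summed to 439 to 476 CPM in 2D Cxcl5-/- and 189 to 221 in the 3D libraries, and the fibroblast list to 172 to 185 and 392 to 450 CPM. The part of these markers was not tested.

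A test of the difference itself, the effect of the genotype label in 3D minus that in 2D, called 10 of the 28 chains, 4 above 0 and 6 below, beside 27.2% of all genes tested (11.1% above 0, 16.1% below). With library totals the split was 7 above and 4 below, and the median over all genes went from -0.05 to 0.32. The difference was -1.45 ± 0.32 for Itga6 (adjusted p = 0.00445) and -1.15 ± 0.19 for Itgb4 (adjusted p = 6.31e-04). Of the laminin-binding integrin chains 4 of 7 were below 0 and none above. Lama3 was above 0 (2.08 ± 0.42, adjusted p = 0.00270), its fall being larger in 2D than in 3D. Itgb8 was above 0 as well (0.93 ± 0.14, adjusted p = 4.03e-04), and for Lamb3 the difference did not pass (adjusted p = 0.438).

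The comparison of Cxcl5-/- with WT spheroids was made again in the rescue table, with no library in common with the first. Of 36 chains, 11 rose and 13 fell, and 41.9% of all genes tested were called (17.6% up, 24.3% down), with a median of -0.30 over all genes on the log2 scale. When only genes with expected background below 10% of their counts throughout were tested, a choice made after seeing the data, 13 chains were called, 7 up and 6 down. Itga6 was at 77.0 and 80.0 CPM in rescue WT and 2.08 and 1.99 in rescue Cxcl5-/- (log2 fold change -5.27 ± 0.13, adjusted p = 2.02e-09). Its partner Itgb4 was at 47.7 and 45.2 CPM and 25 and 24.0 (log2 fold change -0.92 ± 0.17, adjusted p = 0.00143). The groups did not overlap, and Itga6 fell by more than any other chain that was not at the floor. Itgb7 fell from 63.7 and 59.3 CPM to 7.26 and 6.40 (log2 fold change -3.17 ± 0.19, adjusted p = 4.22e-07), beside leukocyte markers that summed to 43.7 to 44.2 CPM in WT and 34.5 to 34.7 in Cxcl5-/-.

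Itgb8 was at 27.6 and 33.6 CPM in rescue WT and 258 and 251 in rescue Cxcl5-/- (log2 fold change 3.06 ± 0.16, adjusted p = 2.24e-07). Itgb5 was at 168 and 168 CPM and 491 and 484 (log2 fold change 1.53 ± 0.09, adjusted p = 3.69e-07). Lamb2 was at 73.4 and 64.2 CPM and 183 and 192 (log2 fold change 1.45 ± 0.11, adjusted p = 1.85e-06). Each of these chains was more than 2-fold higher with no overlap of the groups. Lama5 rose by 0.67 ± 0.09, Itga3 by 0.50 ± 0.09 and Itga1 by 1.08 ± 0.22 on the log2 scale. Several calls rest on low counts near the background of rescue WT. Lama3 had 44 and 55 counts in rescue WT with 59 expected from background, and Lamb3 had 32 and 41 with 36 expected. Lama1, Lama4, Itga4 and Itgax were at the floor in rescue Cxcl5-/- and were called lower, by at least 16.8-fold, 15.1-fold, 27.4-fold and 4.81-fold. Their counts in rescue WT were 61 and 33 for Lama1, 42 and 43 for Lama4, 77 and 77 for Itga4 and 15 and 12 for Itgax, beside 53, 66, 76 and 26 expected from background. Lamc3 had 47 and 42 counts in rescue WT, with 33 expected, and 0 and 5 in rescue Cxcl5-/- (log2 fold change -4.19 ± 0.94, adjusted p = 0.00454), a change of -8.61 without rescue Cxcl5-/- replicate 2. Leaving out any of the 4 libraries ended the calls of Lama1 (adjusted p from 0.0521 to 0.119) and Lama4 (0.0575 to 0.0700).

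Set side by side, both experiments tested 28 chains. Of these, 16 were called in the first and 20 in the second, beside 45.0% and 41.9% of all genes tested. How many of all genes shared a call in both experiments was not counted. The calls shared a direction for 12 chains, 6 up and 6 down, which is 12 of those 16 and 12 of those 20. Those up in both were Itga1, Itgb2, Itgb5, Itgb8, Lamb2 and Lamb3, and Itga6, Itgb4, Itgb7, Lama3 and Lamb1 were among those down in both. These chains were named for their shared call, after their values were seen. With library totals Itga6, Itgb7 and Lamb1 were not called in the first experiment. Lama3 counts in rescue WT did not exceed the expected background given above, so its shared call does not show a repeated fall. Lamb3 counts in WT spheroids were near the expected background in both experiments. Itgb1 alone was called in opposite directions, at -0.37 ± 0.07 in the first experiment and 0.29 ± 0.09 in the second, and the call in the second was lost without any of its 4 libraries (adjusted p from 0.104 to 0.160). The sizes differed for Itga6, at -0.86 ± 0.23 in the first and -5.27 ± 0.13 in the second.

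**Figure D3:**
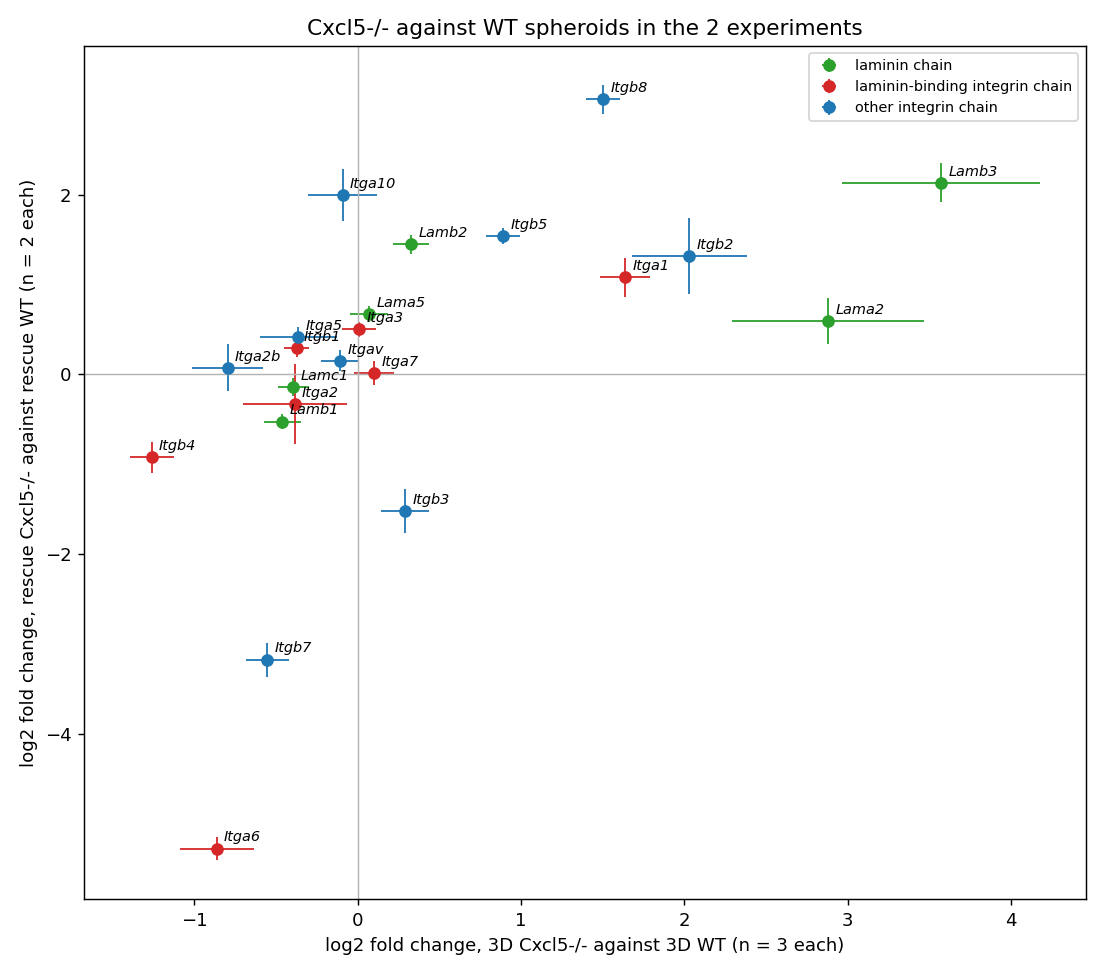
Log2 fold change of Cxcl5-/- against WT spheroids in the table of 2D and 3D cultures (horizontal axis) and in the rescue table (vertical axis), for 22 chains with a mean count of at least 50 in both, with bars of 1 SE and colours by role. Itgb4 and Itga6 lie at the lower left, Itgb8, Itgb5, Itga1 and Lamb3 at the upper right, and Itga3, Itga7 and Itgav near 0 on the horizontal axis.

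Overexpression of Hif1a in Cxcl5-/- spheroids went with higher Itga6 and lower Itga1, Itga7 and Itgb8. Of 36 chains, 6 rose and 9 fell against rescue Cxcl5-/-, and 35.5% of all genes tested were called (20.5% up, 15.0% down). This comparison shares the rescue Cxcl5-/- libraries with the previous one, so a low value in them lowers one fold change and raises the other, and levels are given for all groups. Itga6 was at 38.3, 35.4 and 37.4 CPM in Hif1aOE, 2.08 and 1.99 in Cxcl5-/- and 77.0 and 80.0 in WT (log2 fold change 4.19 ± 0.12, adjusted p = 1.22e-08, against Cxcl5-/-). Itgb7 was at 20.7, 20.8 and 24.4 CPM in Hif1aOE (log2 fold change 1.69 ± 0.17, adjusted p = 1.83e-05). For both chains the Hif1aOE libraries lay between the Cxcl5-/- and the WT libraries without overlap. Itgb4 was at 31.3, 30.8 and 37.9 CPM in Hif1aOE, a log2 fold change of 0.44 ± 0.16 whose call was lost without any of 4 of the 5 libraries (adjusted p from 0.0444 to 0.196) and with library totals (log2 fold change 0.23, adjusted p = 0.355).

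Itga1 was at 1.2, 0.944 and 1.68 CPM in Hif1aOE and 11.0 and 10.6 in Cxcl5-/- (log2 fold change -3.08 ± 0.21, adjusted p = 1.41e-06), and all 3 Hif1aOE libraries were below those of rescue WT as well. Itga1 has 18599 bases of exon, so part of its rescue WT counts is expected from the background of 5.31 to 5.46 counts per kb. Itga7 was at 18.4, 25.9 and 22.5 CPM and 79.8 and 82.7 (log2 fold change -1.87 ± 0.12, adjusted p = 1.16e-06). Itgb8 was at 92.2, 103 and 108 CPM and 258 and 251 (log2 fold change -1.33 ± 0.14, adjusted p = 1.93e-05). No Hif1aOE library of these chains reached a Cxcl5-/- library. Itga5, the alpha chain of the fibronectin receptor, and Itgav fell by 1.33 ± 0.10 and 0.96 ± 0.10 on the log2 scale. Lama2 fell by 2.06 ± 0.24. Lamc3 was called higher in Hif1aOE, at 0.569, 2.06 and 0.940 CPM (log2 fold change 4.48 ± 0.91, adjusted p = 0.00236), a change that was 8.91 without rescue Cxcl5-/- replicate 2. Itgb5 did not pass the test, at 519, 473 and 482 CPM in Hif1aOE (log2 fold change 0.01 ± 0.08, adjusted p = 0.957). The falls of Lamb2, Lamc1 and Itgb1 were -0.35 ± 0.09, -0.36 ± 0.09 and -0.35 ± 0.08 on the log2 scale, and each call was lost without either of the Cxcl5-/- libraries (adjusted p up to 0.130, 0.0769 and 0.0935).

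**Figure D4:**
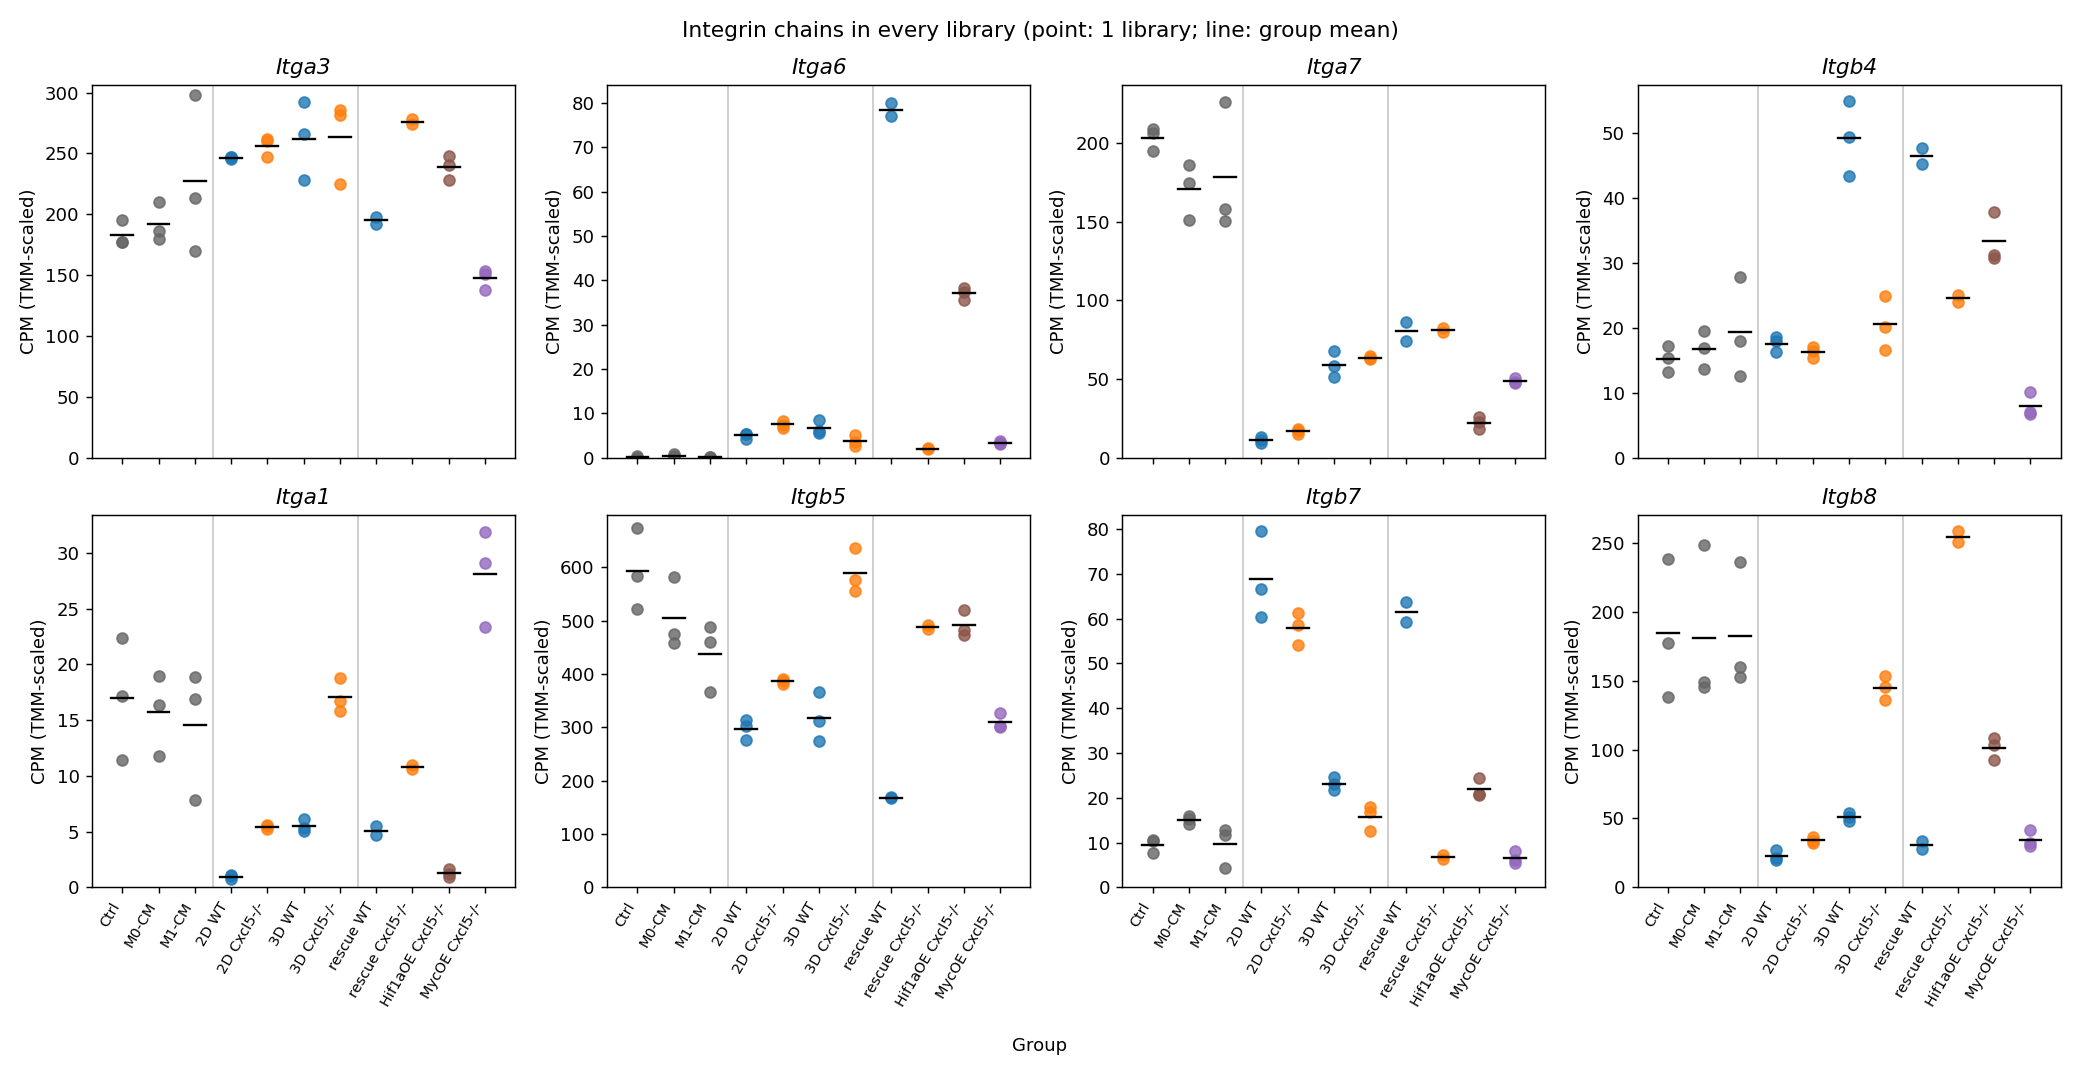
CPM on the TMM-scaled library size (vertical axes, each from 0) of 8 integrin chains in every library (points, with the group mean as a line) of the 11 groups (horizontal axes), with grey lines between the 3 tables. Itga6 is high in rescue WT and in Hif1aOE Cxcl5-/-, Itgb8 is high in Cxcl5-/- spheroids and in the 3 groups of the conditioned media table, and Itga1 is highest in MycOE Cxcl5-/-.

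Overexpression of Myc in Cxcl5-/- spheroids went with much higher Lamb3 and with lower RNA of abundant chains of both families. Of 36 chains, 6 rose and 13 fell against rescue Cxcl5-/-, and 39.6% of all genes tested were called (21.6% up, 18.0% down). None of the 17 integrin chains tested outside the laminin-binding list rose and 5 fell, while 4 laminin chains rose and 4 fell. Lamb3 was at 45.2, 53.0 and 50.7 CPM in MycOE and 3.15 and 3.86 in Cxcl5-/- (log2 fold change 3.82 ± 0.18, adjusted p = 9.19e-08). Hsd11b1 and G0s2 overlap Lamb3 on the opposite strand, and whether strand was used in counting is not given in the sources used here. Lama3 was at 1.42, 0.478 and 1.15 CPM and 0.187 and 0.0406 (log2 fold change 3.14 ± 0.71, adjusted p = 0.00404). All MycOE libraries were above all Cxcl5-/- libraries for both chains, but Lama3 had 9 and 2 counts in rescue Cxcl5-/- with 7.29 to 7.55 expected from background. Per kb of exon, Lamb3 reached 7.51 ± 0.604 CPM (SD, n = 3) in MycOE while Lama3 was at 0.0943 ± 0.0449. In 3D WT the order was the reverse, with Lama3 above Lamb3.

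Itgb8 was at 32.0, 41.8 and 30.1 CPM in MycOE and 258 and 251 in Cxcl5-/- (log2 fold change -2.88 ± 0.14, adjusted p = 1.03e-07). Itgb4 was at 6.77, 10.1 and 7 CPM and 25 and 24.0 (log2 fold change -1.63 ± 0.16, adjusted p = 1.00e-05). Itga6 was at 3.19, 3.83 and 3.07 CPM and 2.08 and 1.99 (log2 fold change 0.72 ± 0.12, adjusted p = 5.31e-04). No library of one group reached the other for these chains. The chains of the hemidesmosome receptor thus moved in opposite directions under TMM, but with library totals Itga6 did not pass (log2 fold change 0.39, adjusted p = 0.0528). Itga1 rose to 23.3, 29.1 and 31.9 CPM (log2 fold change 1.38 ± 0.20, adjusted p = 1.94e-04). Itga5 and Itgav fell by 1.72 ± 0.10 and 1.31 ± 0.10 on the log2 scale, Itga3 by 0.91 ± 0.08 and Itgb1 by 0.63 ± 0.08. Among the abundant ligands, Lamb1 fell by 0.90 ± 0.08, Lama5 by 0.72 ± 0.08, Lamb2 by 0.50 ± 0.09 and Lamc1 by 0.41 ± 0.09. Lama2 rose by 0.97 ± 0.23, a call lost without rescue Cxcl5-/- replicate 2 (adjusted p = 0.0600). The epithelial markers listed above summed to 662 to 783 CPM in Hif1aOE and 241 to 286 in MycOE, against 258 to 271 in rescue Cxcl5-/-. The fibroblast markers summed to 133 to 168 CPM in Hif1aOE, 310 to 342 in MycOE and 372 to 379 in rescue Cxcl5-/-, and the part of either list in these results was not tested.

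**Figure D5:**
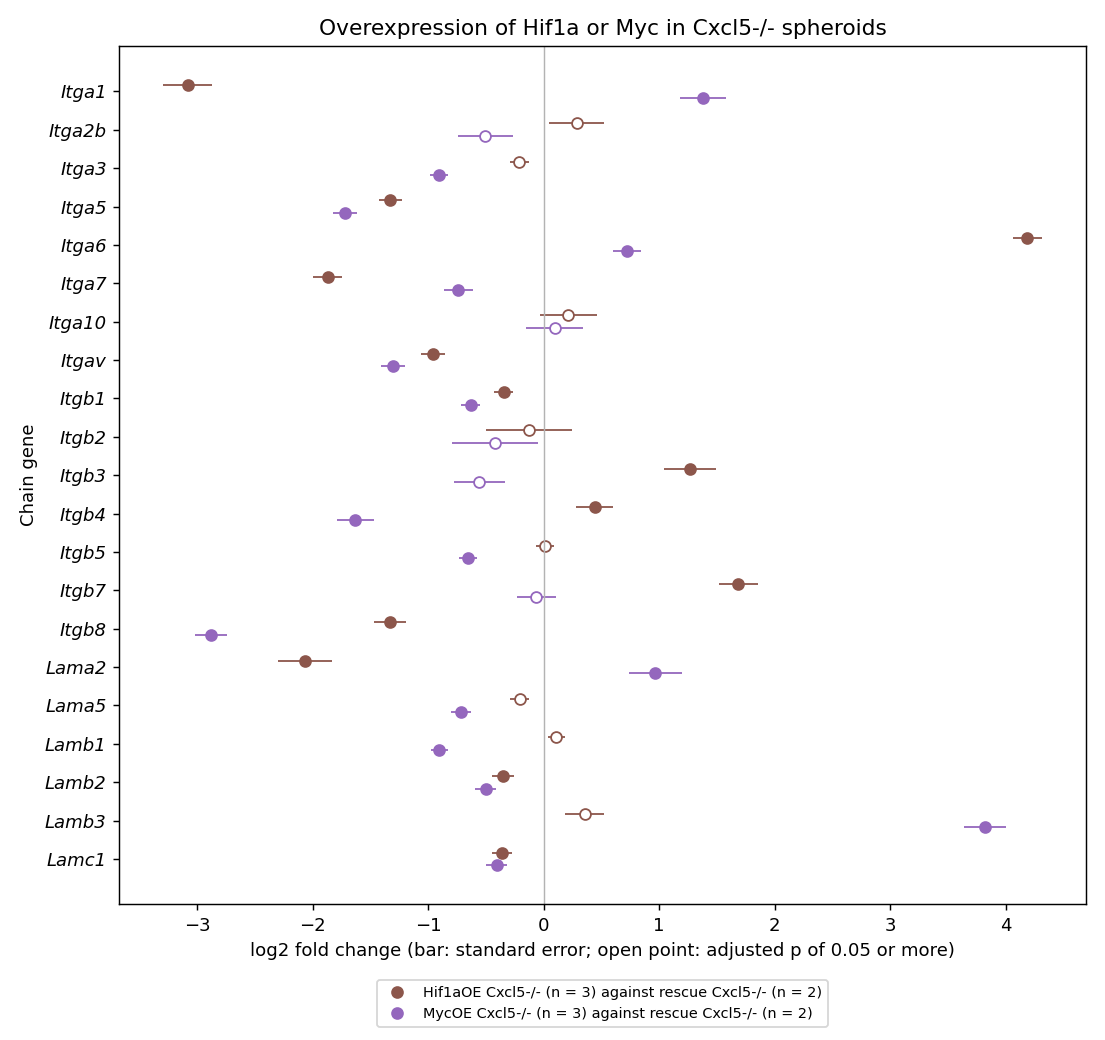
Log2 fold change (horizontal axis, with bars of 1 SE) of 21 chains with a mean count of at least 50 (vertical axis) in Hif1aOE Cxcl5-/- and in MycOE Cxcl5-/- spheroids, both against the same 2 rescue Cxcl5-/- libraries, with open points where the adjusted p was 0.05 or more. Itga6 is far to the right in Hif1aOE alone, Lamb3 in MycOE alone, and Itga1 and Itgb4 lie on opposite sides of 0.

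The overexpressed factors were also compared with each other. Of 36 chains, 5 were higher and 15 lower in MycOE than in Hif1aOE, and 19.3% of all genes tested were called (9.54% up, 9.73% down). Itga6 was lower in MycOE (log2 fold change -3.46 ± 0.10, adjusted p = 6.65e-09), and so was Itgb4 (log2 fold change -2.07 ± 0.15, adjusted p = 2.94e-06). Itga1 was higher (log2 fold change 4.46 ± 0.21, adjusted p = 1.32e-07), as were Lamb3 (log2 fold change 3.47 ± 0.15, adjusted p = 8.72e-08) and Lama2 (log2 fold change 3.03 ± 0.22, adjusted p = 3.70e-06). Itga7 and Lama3 were higher by 1.13 ± 0.11 and 2.5 ± 0.57 on the log2 scale, and Lamb1 fell by 1.01 ± 0.07 from Hif1aOE to MycOE. Lamc3 was lower by 1.99 ± 0.63 on the log2 scale with 0.296, 0.283 and 0.317 CPM in MycOE, a call lost without any of 5 of the 6 libraries (adjusted p from 0.0345 to 0.201).

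None of 26 chains was called between M1-CM and Ctrl or between M1-CM and M0-CM, where 0.0156% of all genes tested were called, or between M0-CM and Ctrl, where 0.0% were. At an unadjusted p under 0.05, 2 chains were lower in M1-CM than in Ctrl, 2 were lower than in M0-CM and 0 passed between M0-CM and Ctrl, beside 4.70%, 2.59% and 2.96% of all genes tested in either direction. DESeq2 called 0 in each of the 3 comparisons. Lamb2 was one of those 2 chains in both cases, at 232, 215 and 255 CPM in Ctrl, 231, 235 and 215 in M0-CM and 196, 165 and 187 in M1-CM (adjusted p = 0.965 against Ctrl). Its M1-CM libraries lay below all others. Itgb1 was at 822, 821 and 802 CPM in Ctrl and 783, 683 and 776 in M1-CM. In counts simulated for M1-CM against Ctrl, the fit recovered 20% of genes changed 2-fold and 54% of those changed 4-fold. Changes of these sizes could therefore be missed between conditioned media.

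Partners of these chains on both sides of the membrane were read from lists of known members. Of 10 other laminin receptors and hemidesmosome proteins, 6 rose and none fell in 3D WT against 2D WT, 2 rose and 4 fell in the libraries labelled 3D Cxcl5-/- against 3D WT, and 5 rose and 2 fell in rescue Cxcl5-/- against rescue WT. Bcam, a laminin receptor that binds Lama5, was at 53.3, 35.4 and 47.0 CPM in 3D WT and 0.868, 0.329 and 2.64 in the libraries labelled 3D Cxcl5-/- (log2 fold change -5.12 ± 0.51, adjusted p = 3.04e-06). In the rescue table Bcam was at 3.27 and 2.59 CPM in WT and at 3 counts or fewer in Cxcl5-/-, in a table normalised separately from the other. Sdc3, a cell surface proteoglycan, was at 9.77, 8.36 and 12.5 CPM in 3D WT and 119, 192 and 168 in the libraries labelled 3D Cxcl5-/- (log2 fold change 3.96 ± 0.19, adjusted p = 4.61e-09), and at 10.3 and 14.3 and 232 and 239 in rescue WT and Cxcl5-/- (log2 fold change 4.26 ± 0.14, adjusted p = 1.31e-08).

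Of 11 basement membrane partners, 6 rose and none fell in 3D WT against 2D WT, 3 rose and 2 fell in the libraries labelled 3D Cxcl5-/- against 3D WT, and 6 rose and none fell in rescue Cxcl5-/- against rescue WT. Nid2, a nidogen that links laminin to collagen IV, was at 1.86, 1.89 and 2.66 CPM in 3D WT and 44.8, 55.5 and 45.6 in the libraries labelled 3D Cxcl5-/- (log2 fold change 4.50 ± 0.22, adjusted p = 4.61e-09), and at 1.94 and 2.30 and 78.6 and 80.9 in rescue WT and Cxcl5-/- (log2 fold change 5.23 ± 0.36, adjusted p = 1.14e-06). With Hif1a overexpressed, 7 of the 11 fell and none rose, Hspg2, the proteoglycan perlecan, by the most (log2 fold change -3.60 ± 0.21, adjusted p = 5.66e-07). With Myc overexpressed, 6 fell and 1 rose, the latter being Nid1 (log2 fold change 4.55 ± 1.40, adjusted p = 0.0227). Of the integrin adaptors on the inner side, 1 rose and 6 of 14 fell in the libraries labelled 3D Cxcl5-/- against 3D WT, 3 rose and 3 of 15 fell in rescue Cxcl5-/- against rescue WT, and 2 rose and 7 fell in Hif1aOE. Of the other integrin ligands, 3 rose and 1 of 8 fell in the libraries labelled 3D Cxcl5-/-, where Fn1, fibronectin, rose by 1.29 ± 0.16 on the log2 scale, and by 1.45 ± 0.16 in rescue Cxcl5-/-. Tnc, the matrix protein tenascin-C, fell by 5.83 ± 0.48 on the log2 scale in Hif1aOE and by 4.71 ± 0.44 in MycOE. Over all genes tested, the share called was 44.3% in 3D WT against 2D WT, 45.0% in the libraries labelled 3D Cxcl5-/- against 3D WT, 41.9% in rescue Cxcl5-/- against rescue WT, 35.5% in Hif1aOE and 39.6% in MycOE. In the libraries labelled 3D Cxcl5-/-, the shares of the adaptors, basement membrane partners and other integrin ligands were near that of all genes. In rescue Cxcl5-/-, the shares of the adaptors and the other integrin ligands were near it. No gene of these lists was called between conditioned media in the fits made here, where 8 of the 12 other integrin ligands were tested. The study, which used DESeq2, lists Vcam1 as higher in M1-CM than in M0-CM and Edil3 as higher in M0-CM than in Ctrl. Both are on the list of other integrin ligands.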

How the data were processed

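RNA was sequenced from 31 libraries of Panc02 cells. The authors made stranded total RNA libraries, aligned reads to GRCm38 with HISAT2 and deposited StringTie gene counts in 3 tables, not normalised. Whether counting used strand is not given in the sources used here. Samples were grouped by their labels, and every value column was used. The members and lists were chosen with earlier results of these data known. Counts cover all members, 1 of which is not reported by name or plotted here.

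Each table was fitted with the quasi-likelihood test of edgeR 4.0.16 (R 4.3.3), all groups together, after filterByExpr and TMM scaling, with Benjamini-Hochberg adjustment over all genes tested. Calls needed an adjusted p below 0.05 and, between conditioned media, a change past 1 in size on the log2 scale too. The SE was the absolute log2 fold change divided by the square root of F. DESeq2 1.42.0 served as an alternative, beside other scalings, filters, a replicate block and leave-one-out fits. The scripts were tested on simulated counts. Exon lengths came from the annotation of GRCm38 and promoters from RefSeq. Where all libraries of a group had at most 3 counts of a gene, this floor stands in for the group, and the fold, as a lower bound, covers counting error only.

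Names could be given to laminin chains and Itga3, Itga6, Itga7, Itgb1 and Itgb4 where called in a comparison, and to up to 4 chains up and 4 down with the largest change at a mean count of at least 50. The text names as many of these as it needs. Chains that were not called are named where a partner or ligand was described. Of the other lists, genes with the largest change up or down were named, beside those that the study lists as changed between conditioned media.

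Depth was 41542533 to 78498230 counts. A correlation over 0.1 between same-numbered libraries was seen in 3 of 9, 1 of 18 and 0 of 13 pairs. The highest, 0.359, was in the conditioned media table. With so few libraries per group, these values cannot exclude that libraries sharing a number deviated together.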

Additional observations from a re-analysis of the deposited data

Results flagged for a closer look

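The effect of the genotype label differed between 3D and 2D culture, by the test of the difference itself, for 10 chains. The difference on the log2 scale, 3D minus 2D, was 3.58 ± 0.48 for Itgb2, 2.08 ± 0.42 for Lama3, 0.93 ± 0.14 for Itgb8 and 0.52 ± 0.15 for Itgb5. It was -1.91 ± 0.33 for Itga2b, -1.45 ± 0.32 for Itga6, -1.15 ± 0.19 for Itgb4, -0.86 ± 0.22 for Itga1 and -0.52 ± 0.11 for Itgb1. Itgb2 fell in 2D (-1.55 ± 0.33) and rose in 3D (2.03 ± 0.35), and Itga2b rose in 2D (1.11 ± 0.25) and fell in 3D (-0.79 ± 0.22). The Itgb5 difference lost its call without any of 6 of the 12 libraries (adjusted p from 0.00651 to 0.0736), and with library totals those of Itga1 and Itgb1 were -0.49 and -0.16 (adjusted p = 0.139 and 0.359). Between the experiments, Itgb1 had a log2 fold change of -0.37 ± 0.07 in the libraries labelled 3D Cxcl5-/- against 3D WT and of 0.29 ± 0.09 in rescue Cxcl5-/- against rescue WT. The groups did not overlap in either experiment, and this difference was not tested.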

How the results depend on the processing

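The counts of called chains stayed within 1.5 times their value in every comparison under DESeq2, DESeq2 size factors, library totals, no filter, a minimum of 10 counts and the replicate block, and with only the groups compared, which was not fitted for the difference between genotype effects. With an absolute log2 fold change above 1 asked for as well, the count was 8 in the libraries labelled 3D Cxcl5-/- against 3D WT, 4 in 2D Cxcl5-/- against 2D WT, 11 in 3D Cxcl5-/- against 2D Cxcl5-/-, 6 for the difference between genotype effects, 8 in MycOE against Cxcl5-/- and 12 in MycOE against Hif1aOE, by the construction of that limit. With only genes whose expected background was low, it was 13 in rescue Cxcl5-/- against rescue WT. Leaving out 1 library gave 17 to 19 chains for 3D WT against 2D WT, 15 to 18 for 3D Cxcl5-/- against 3D WT, 5 to 7 for 2D Cxcl5-/- against 2D WT, 17 to 20 for 3D against 2D Cxcl5-/-, 9 to 11 for the difference, 17 to 18 for rescue Cxcl5-/- against WT, 11 to 17 for Hif1aOE, 18 to 20 for MycOE, 16 to 19 for MycOE against Hif1aOE and 0 for the media. Single chains gave 148 called values, of which 116 fell under the rule for named chains. Of 1525 alternative values of these 116, 1436 kept direction and call, 87 lost the call and 2 reversed: in 3D Cxcl5-/- against 3D WT with library totals, Itgb1 came to 0.014 and Lamc1 to 0.011. Lost calls of other chains are not in these counts. The cause of the lost calls was not tested. All 116 were refitted without each library in turn, and 98 kept their call in every such fit.

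By their labels, libraries of different groups share only a number. With the replicate block, 3 calls of single chains were lost: Itgb4 in 3D against 2D Cxcl5-/- (0.33, adjusted p = 0.0622) and in Hif1aOE (0.43, adjusted p = 0.0662), and Lamc3 in MycOE against Hif1aOE (-1.82, adjusted p = 0.0534). The block gave 19 called chains for 3D WT against 2D WT, 16 for 3D Cxcl5-/- against 3D WT, 8 for 2D Cxcl5-/- against 2D WT and 23 for rescue Cxcl5-/- against WT. Correlations between same-numbered libraries ran from -0.236 to 0.359. With rescue WT left out of the fit, the counts for Hif1aOE and MycOE stayed within 1.5 times their value.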
